A study of Mus musculus with 6 samples.

Results

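Genes for collagens and other matrix proteins that marrow stroma secretes were followed in 6 Affymetrix arrays of sorted mouse haematopoietic stem cells. The group holds 10 genes, namely the fibrillar collagen chains Col1a1, Col1a2 and Col3a1, the basement membrane chains Col4a1 and Col4a2, the matrix glycoproteins Sparc and Fn1, the proteoglycans Bgn and Dcn, and the chemokine gene Cxcl12. Its members were all probe sets to which the platform annotation gives exactly 1 symbol from this list, which gave 23 of the 45101 probe sets and 10 of the 18194 genes named on the array. Of the 6 arrays, 3 carried RNA of stem cells from mice labelled Irgm1-/- (Lrg-47-/- in the labels, 3 replicates) and 3 carried RNA of stem cells from wild-type (WT) mice. Irgm1 encodes an immunity-related GTPase that interferons induce. All mice were C57BL/6 of 8 to 12 weeks, housed free of specific pathogens, and no treatment of the animals is given. The cells came from whole bone marrow and were sorted by flow cytometry as the side population of Hoechst staining, with Sca-1, c-kit and lineage staining. The labels do not say whether marrow was pooled, or whether the arrays of a group came from separate mice, so p-values measure the spread between these arrays, which may be technical.

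Fibrillar collagens are secreted as triple helices and assemble into the fibres of bone and connective tissue. Type I collagen is built from chains of Col1a1 and Col1a2, type III from Col3a1 alone, and type IV, the network of basement membranes, mainly from chains of Col4a1 and Col4a2. In bone marrow, osteoblasts and fibroblast-like stromal cells make most of the fibrillar collagen, while endothelial cells, megakaryocytes and macrophages also make matrix proteins, and the stromal chemokine Cxcl12 holds stem cells in their niche through its receptor Cxcr4. Transcripts of these genes in a sorted stem cell sample can therefore come from the stem cells or from other marrow cells in the sort, and in bulk RNA, fewer cells of a type and less RNA per cell cannot be told apart.

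RefSeq promoter windows (build GRCm38.p6) were found for 7 of the 10 genes, all but Col1a1, Fn1 and Dcn. The 250 bases before the annotated start are shown for Col1a2, whose probe sets were lower on the arrays labelled Irgm1-/-, for Col3a1, a fibrillar collagen gene at the array's floor in both groups, and for Sparc, 2 of whose 3 probe sets lay higher on each of those arrays. Capitals mark 3 motifs searched on both strands, the CCAAT box (CCAAT or ATTGG), the GC box bound by Sp1 (GGGCGG or CCGCCC) and the TATA motif (TATAAA or TTTATA).
Col1a2, chr6:4505368-4505617, plus strand: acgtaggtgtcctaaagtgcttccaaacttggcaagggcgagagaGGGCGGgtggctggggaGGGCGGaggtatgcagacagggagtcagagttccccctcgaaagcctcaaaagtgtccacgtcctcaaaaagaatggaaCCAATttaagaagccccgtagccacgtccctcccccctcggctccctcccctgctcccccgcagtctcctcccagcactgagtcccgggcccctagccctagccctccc
Col3a1, chr1:45311288-45311537, plus strand: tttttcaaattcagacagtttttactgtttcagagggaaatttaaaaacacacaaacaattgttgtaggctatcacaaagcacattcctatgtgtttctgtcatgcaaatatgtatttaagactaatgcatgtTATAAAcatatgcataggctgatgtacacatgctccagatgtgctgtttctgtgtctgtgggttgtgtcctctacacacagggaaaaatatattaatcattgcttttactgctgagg
Sparc, chr11:55420081-55420330, minus strand: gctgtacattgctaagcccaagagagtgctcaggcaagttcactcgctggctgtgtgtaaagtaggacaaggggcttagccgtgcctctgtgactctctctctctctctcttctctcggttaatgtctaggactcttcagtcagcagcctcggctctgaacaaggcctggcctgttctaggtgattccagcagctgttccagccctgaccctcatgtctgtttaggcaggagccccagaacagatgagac
The Col1a2 window held 1 CCAAT box and 2 GC boxes, the Col3a1 window held 1 TATA motif, and the Sparc window held none of the 3 motifs. Among all 32851 RefSeq windows of this length, 33.8% held a CCAAT box, 32.7% a GC box and 12.4% a TATA motif. The annotated starts of Col4a1 and Col4a2 lie 21 bases apart on opposite strands, so their windows of 300 bases share 78 bases.

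The deposited values are log2 expression per probe set from GCRMA, a background correction and normalisation in which probe sets without signal lie in a narrow low band. The array medians lay between 3.67 and 3.73, and the highest control probe set for bacterial transcripts, which mouse RNA should not contain, lay between 3.00 and 3.18. The Irgm1 probe set read 7.68, 8.58 and 7.84 on the Irgm1-/- arrays and 8.39, 8.57 and 8.36 on the WT arrays (limma log2 difference −0.41, SE 0.25, adjusted p = 0.475). Which part of Irgm1 was deleted is not in the labels, so this probe set is no check of the genotype, and groups are called by their labels. Of 17 stem cell and progenitor genes, 15 had a probe set with 1 symbol, and all 15 lay above the bacterial controls on all 6 arrays. They include Flt3, which marks progenitors, so this is no check of stem cell purity. The actin control probe sets at the 3' and 5' ends differed by 2.57 to 3.56 and those of Gapdh by 2.56 to 3.08. The actin gap was largest on knockout replicate 3 and smallest on WT replicate 3, whereas the Gapdh gap was largest on WT replicate 3.

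Col1a2 was the member whose transcript fell on the Irgm1-/- arrays. No member passed the test for a rise, and the 2 others of the fibrillar chains, Col1a1 and Col3a1, did not rise above the bacterial controls on any array. Basement membrane collagen, biglycan and fibronectin transcripts were well detected in both groups with overlapping or nearly overlapping values. At 2 of its 3 probe sets, Sparc lay higher on all 3 Irgm1-/- arrays without passing the test. Of the 23 member probe sets, 13 lay above the array median on at least 3 arrays and were tested in a limma fit over 22580 probe sets, and these 13 cover 6 of the 10 genes. The fit called 2 of the 13 lower and 0 higher at adjusted p under 0.05, against 0.722% lower, 0.664% higher and 1.39% in either direction of all tested probe sets, while 5 of the 13 and 16.4% of all tested probe sets had an unadjusted p under 0.05. Both calls belong to Col1a2. The median log2 difference, knockout label minus WT, was 0.13 over the 13 and 0.01 over all tested probe sets. For 3 of the 13, the array median was exceeded on every array of one group and on none of the other. Such probe sets entered the test only through the group where they were high. Col1a2 at 1423110_at, 1 of the 2 called probe sets, is among them, with Col1a2 at 1446326_at and Sparc at 1416589_at. The groups did not overlap at 6 of the 13, nor at 22.6% of all tested probe sets. The 3 probe sets that entered through 1 group are among these 6. They are also among the 5 with an unadjusted p under 0.05, so neither count is independent of the filter.

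**Figure D1:**
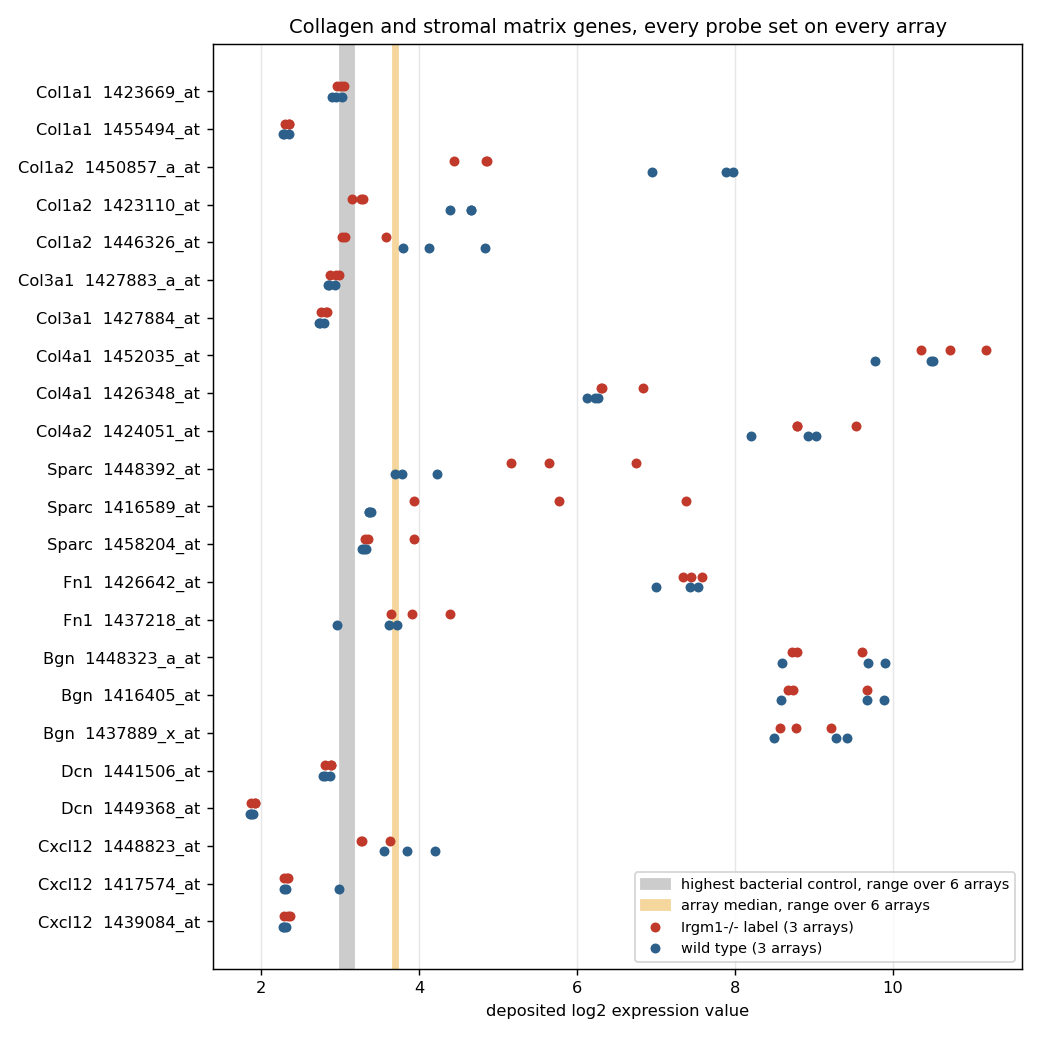
Deposited log2 expression value (horizontal axis) of each of the 23 member probe sets (rows) on the 3 arrays labelled Irgm1-/- (red) and the 3 wild-type arrays (blue), with the range of the highest bacterial control (grey) and of the array medians (yellow). The Col1a1, Col3a1 and Dcn probe sets lie at or left of the grey band, the Col1a2 probe sets are lower in red, and at 2 of the Sparc probe sets every red point lies right of the blue ones.

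Col1a2 encodes the alpha 2 chain of type I collagen. Its probe set with the highest level, 1450857_a_at, read 4.86, 4.44 and 4.85 on the Irgm1-/- arrays and 7.98, 7.88 and 6.94 on the WT arrays. The groups did not overlap, and all 6 values lay above the array median, so this probe set was tested whichever group was high. Its level fell by 2.88 on the log2 scale (SE 0.30, limma adjusted p = 0.00889), a 7.38-fold difference between 4.72 ± 0.24 and 7.60 ± 0.57 (SD, n = 3 each). The second probe set, 1423110_at, read 3.29, 3.26 and 3.15 against 4.66, 4.66 and 4.39. The Irgm1-/- values lay just above the bacterial controls and below the array median, and the log2 difference was −1.34 (SE 0.12, limma adjusted p = 0.00426). It was tested only because the WT arrays lay above the median, and so adds no independent support. The third, 1446326_at, read 3.06, 3.02 and 3.58 against 4.12, 4.84 and 3.79, again without overlap, and did not pass (log2 difference −1.03, SE 0.28, limma adjusted p = 0.138). Of the Irgm1-/- arrays only replicate 3 exceeded the bacterial controls there, while all WT arrays did. Like 1423110_at, 1446326_at was tested only because the WT arrays lay above the median, and so adds no independent support.

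All 3 Col1a2 probe sets were thus lower on each Irgm1-/- array than on any WT array, by unequal amounts. Only 1450857_a_at was tested whichever group was high. Without WT replicate 2 the difference at 1450857_a_at was nearly as large, −2.74, but its limma adjusted p of 0.0536 no longer passed. Without any other single array it kept an adjusted p between 0.00506 and 0.0466, and 1423110_at kept one of at most 0.0309 without any 1 array. With the mean of its tested probe sets, Col1a2 had a log2 difference of −1.75 (SE 0.20, limma adjusted p = 0.0075). That mean includes 1423110_at and 1446326_at, which were tested only through the WT arrays, and so adds no independent support.

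Col1a1 and Col3a1, the partner chain and the type III chain, showed no such pattern. The higher of the Col1a1 probe sets, 1423669_at, read 3.05, 3.02 and 2.96 on the Irgm1-/- arrays and 2.90, 3.02 and 2.95 on the WT arrays, and the other, 1455494_at, lay between 2.28 and 2.36. Col3a1 read 2.99, 2.95 and 2.87 against 2.85, 2.93 and 2.87 at 1427883_a_at, and lay between 2.73 and 2.84 at 1427884_at. None of these 4 probe sets exceeded the bacterial controls on any array, and none was tested, so these arrays give only an upper limit for both transcripts. A fold is not given for them.

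Col4a1 and Col4a2, the paired chains of the basement membrane network, were high in both groups. The brighter Col4a1 probe set, 1452035_at, read 10.72, 10.35 and 11.17 on the Irgm1-/- arrays and 10.51, 10.48 and 9.77 on the WT arrays. The groups overlapped, and the log2 difference of 0.49 (SE 0.27, limma adjusted p = 0.42) had a 95% interval from −0.14 to 1.13. The dimmer one, 1426348_at, read 6.31, 6.31 and 6.83 against 6.23, 6.12 and 6.27, with no overlap but a difference of only 0.28 (SE 0.20, limma adjusted p = 0.538). Col4a2 read 8.79, 8.79 and 9.53 against 8.92, 9.02 and 8.20 (log2 difference 0.32, SE 0.29, limma adjusted p = 0.635, 95% interval −0.37 to 1.01).

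The Col4a1 and Col4a2 values were highest on knockout replicate 3 and, for 1452035_at and Col4a2, lowest on WT replicate 3. The order of the other arrays differed between the probe sets. Within an array, Col4a2 minus Col4a1 was −1.93, −1.56 and −1.64 on the Irgm1-/- arrays and −1.59, −1.45 and −1.57 on the WT arrays, a change of −0.17 (exact 2-sided permutation p = 0.3, where 3 against 3 arrays allow no p under 0.1). The 3 other pairs computed each hold Col1a2 and so carry its difference, the Sparc pair together with that of Sparc, and are not given. The same 2 arrays stood out over the tested members. On 9 of the 13 probe sets, knockout replicate 3 was the highest of its group, and on 10 of the 13, WT replicate 3 was the lowest of its group. Of all tested probe sets, 37.2% and 38.9% had these arrays in these places, and probe sets of 1 gene share their transcript. With the actin gap as a covariate, a fit chosen after the data were seen, 1452035_at lay at 0.37 (limma adjusted p = 0.192).

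Sparc encodes osteonectin, a collagen-binding glycoprotein of bone, endothelium and platelets. Its probe set 1448392_at read 5.65, 5.16 and 6.74 on the Irgm1-/- arrays and 3.79, 3.70 and 4.23 on the WT arrays. The second, 1416589_at, read 5.78, 3.94 and 7.38 against 3.37, 3.40 and 3.37, and the third, 1458204_at, read 3.93, 3.36 and 3.32 against 3.31, 3.28 and 3.33 and was not tested. The first 2 had no overlap between groups, and knockout replicate 3 was highest and replicate 2 lowest in both. Neither passed, with log2 differences of 1.94 (SE 0.38, limma adjusted p = 0.0638, 95% interval 1.05 to 2.83) and 2.32 (SE 0.73, limma adjusted p = 0.194). The first of these crossed the threshold when knockout replicate 3 was left out (1.50, limma adjusted p = 0.0465), while over all other arrays left out its adjusted p reached 0.204. Without knockout replicate 2 the second lay at 3.20 (limma adjusted p = 0.0504), and without replicate 3 at 1.48 (limma adjusted p = 0.174). This second probe set, 1416589_at, was tested only because the Irgm1-/- arrays lay above the array median, and so adds no independent support. All its WT values lay above the bacterial controls but below the array median, so the size of its difference rests partly on the floor.

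**Figure D2:**
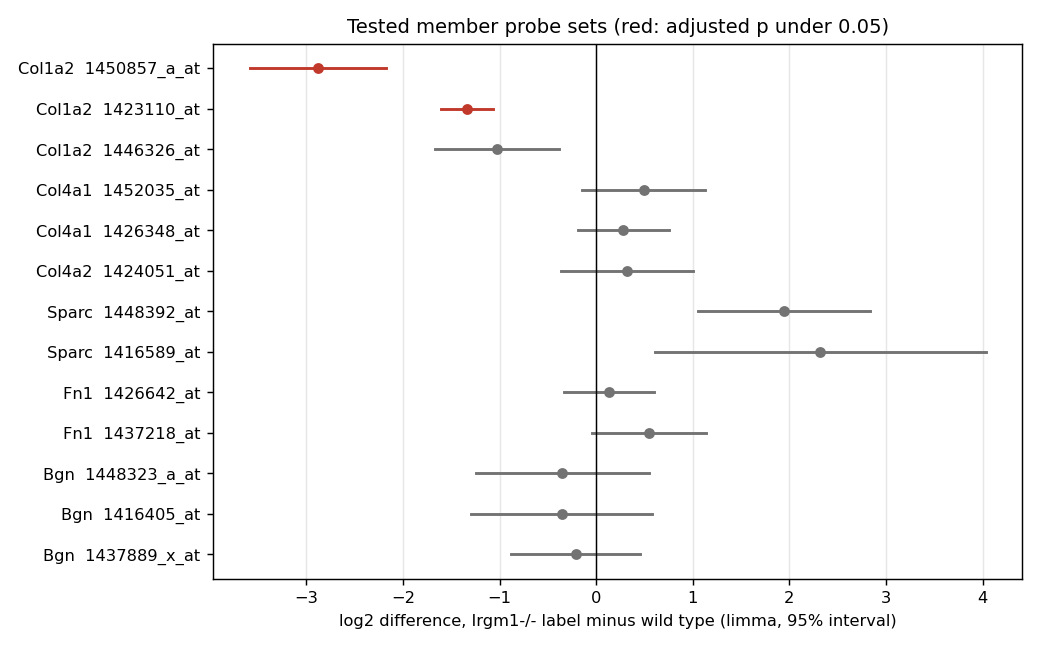
Log2 difference between the arrays labelled Irgm1-/- and wild type (horizontal axis) for the 13 tested member probe sets (rows), with the 95% interval of the limma fit, and in red those with adjusted p under 0.05. Only 2 Col1a2 probe sets are red, at −2.88 and −1.34, and the Sparc intervals lie right of 0 although their adjusted p-values are 0.0638 and 0.194.

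Fn1 encodes fibronectin, a cell-binding glycoprotein that many cell types secrete. Its brighter probe set, 1426642_at, read 7.58, 7.44 and 7.34 on the Irgm1-/- arrays and 7.53, 7.43 and 7.00 on the WT arrays. The groups overlapped, and the difference of 0.13 (SE 0.20, limma adjusted p = 0.791, 95% interval −0.33 to 0.60) turned to −0.027 without WT replicate 3. The dimmer 1437218_at read 4.39, 3.64 and 3.91 against 3.72, 3.62 and 2.96 (log2 difference 0.55, SE 0.25, limma adjusted p = 0.335). Its value on WT replicate 3 did not exceed the bacterial controls, so the size of this difference rests partly on the floor.

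Bgn and Dcn encode biglycan and decorin, small leucine-rich proteoglycans that bind collagen fibrils. Biglycan was high on every array. Its probe set 1448323_a_at read 8.72, 8.79 and 9.60 on the Irgm1-/- arrays and 9.89, 9.68 and 8.59 on the WT arrays, so the groups overlapped, with knockout replicate 3 and WT replicate 3 each apart from the rest of its group. The log2 difference was −0.35 (SE 0.38, limma adjusted p = 0.7, 95% interval −1.25 to 0.55), and the other Bgn probe sets lay at −0.36 and −0.21 (limma adjusted p = 0.707 and 0.764). Without WT replicate 3 the first lay at −0.75 and without WT replicate 1 at −0.10, with limma adjusted p of 0.33 and 0.955. Decorin, in contrast, lay at 2.79 to 2.89 at 1441506_at and 1.86 to 1.93 at 1449368_at over the 6 arrays, never above the bacterial controls, and was not tested.

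Cxcl12 stayed close to the floor and had 0 tested probe sets. Its probe set 1448823_at read 3.28, 3.63 and 3.26 on the Irgm1-/- arrays and 4.21, 3.55 and 3.85 on the WT arrays. All 6 values exceeded the bacterial controls and only 2 of them, on WT replicates 1 and 3, the array median. The groups overlapped, and without a filter on dim probe sets the log2 difference was −0.48 (SE 0.18, limma adjusted p = 0.463). The other Cxcl12 probe sets lay between 2.28 and 2.99, never above the bacterial controls. The Cxcl12 receptor Cxcr4, which stem cells are known to carry, was by comparison well detected, with 8.80, 9.15 and 8.78 against 8.26, 9.20 and 9.17 (log2 difference 0.03, limma adjusted p = 0.967), and was named for its place beside Cxcl12 after its values were seen.

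Summed over the 10 genes on the linear scale, with each gene at its highest probe set, the level was 2849, 2453 and 4153 on the Irgm1-/- arrays and 3381, 3220 and 1862 on the WT arrays. The groups overlapped, and the log2 ratio of their means, 0.16, changed sign without knockout replicate 3 (−0.090) or WT replicate 3 (−0.067), so the total has no direction.

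Other genes of the matrix were taken from 9 lists with 235 genes, of which 222 had a probe set with 1 symbol and 96 were tested, each by its probe set with the highest mean. Limma called 0 of the 96 in either direction, where it called 1.08% higher, 0.954% lower and 2.03% in all of 10374 tested genes, and 19 of the 96 had an unadjusted p under 0.05, near the 18.5% of all tested genes. Their median log2 difference was 0.00, as was that of all tested genes. Of 17 other fibrillar and fibril-associated collagens 3 were tested and 12 never exceeded the bacterial controls, and of 17 other network, microfibril and transmembrane collagens 0 were tested and 14 never exceeded them. The fibrillar list held its smallest p-values at Col20a1 (0.21, limma adjusted p = 0.515) and Col9a3 (0.15, limma adjusted p = 0.612), both near the array median.

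The machinery that folds and crosslinks collagen was detected more widely, with 19 of 28 genes on the array tested. The smallest p belonged to the crosslinking enzyme lysyl oxidase, Lox, which read 4.88, 5.86 and 5.13 against 6.38, 6.42 and 6.26 without overlap (log2 difference −1.06, SE 0.26, limma adjusted p = 0.116). Next came Tent5a, a poly(A) polymerase that extends the tails of collagen and other secretory transcripts in osteoblasts, at 0.94 (SE 0.24, limma adjusted p = 0.126). Of 6 tested basement membrane partners, the laminin chain Lama5 lay at 1.02 (SE 0.20, limma adjusted p = 0.06) and agrin, Agrn, at 0.68 (limma adjusted p = 0.333). The list's median was 0.41. Among 2 tested proteoglycans, serglycin, Srgn, the granule proteoglycan of blood cells, lay at −0.33 (limma adjusted p = 0.273) and Aspn at 0.04 (limma adjusted p = 0.885), and 9 of the 13 genes never exceeded the bacterial controls.

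Of 8 tested glycoproteins of matrix and elastic fibres, thrombospondin 1, Thbs1, which platelets and stroma secrete, lay at −1.48 (SE 0.35, limma adjusted p = 0.105). Periostin, Postn, a collagen-binding protein of fibroblasts and osteoblasts, read 3.31, 3.31 and 3.24 on the Irgm1-/- arrays and 4.79, 5.13 and 3.79 on the WT arrays, without overlap (log2 difference −1.28, SE 0.31, limma adjusted p = 0.112). Of 22 tested receptors for matrix and Cxcl12, Dpp4, a surface peptidase that can cleave Cxcl12, read 6.48, 4.73 and 7.03 against 8.73, 9.15 and 8.80 (log2 difference −2.81, SE 0.54, limma adjusted p = 0.0599), and 2 of its 3 tested probe sets were called lower. Syndecan 1, Sdc1, lay at −1.09 (SE 0.24, limma adjusted p = 0.0938). The integrin chain Itgb5, named after its values were seen, lay at −1.56 (SE 0.39, limma adjusted p = 0.118), and 1 of its 4 tested probe sets was called lower.

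Of 13 tested matrix proteases and inhibitors, the metalloproteinase inhibitor Timp2 lay at −0.85 (SE 0.20, limma adjusted p = 0.105) and the gelatinase Mmp2 at −1.05 (SE 0.27, limma adjusted p = 0.129). The list's median was −0.31. Of 23 tested TGF-beta ligands and matrix gene regulators, Smad3, which carries the TGF-beta signal to collagen genes, lay at −0.53 (limma adjusted p = 0.185). The growth factor Pdgfa lay at 1.11 (limma adjusted p = 0.187), and 1 of its 2 tested probe sets was called higher.

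**Figure D3:**
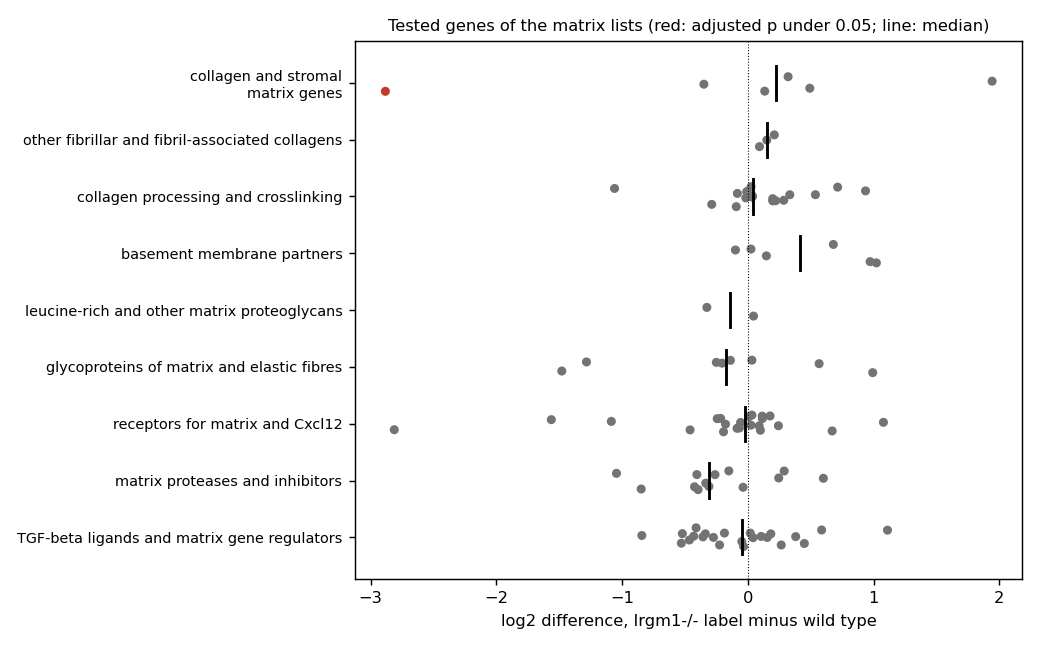
Log2 difference between the arrays labelled Irgm1-/- and wild type (horizontal axis) for each tested gene (points) of the collagen and stromal matrix genes and of the matrix lists with tested genes (rows), with the median of each row as a line. Col1a2, at −2.88, is the 1 red point past the threshold, and 0 of the 96 genes of the other lists passed.

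Markers of the cell types that make matrix in marrow were read on the same arrays. Of 30 marrow stromal and CAR (Cxcl12-abundant reticular) cell markers, 13 never exceeded the bacterial controls, among them the defining genes Lepr, Foxc1, Ebf3, Adipoq and Kitl, and 13 were tested. The 2 called, both higher, were Thy1 (3.63, SE 0.48, limma adjusted p = 0.0209), which is also a T cell gene, and Ly6e (1.22, SE 0.22, limma adjusted p = 0.0476), which interferon induces. The list's summed level was 17870 to 22290 on the Irgm1-/- arrays and 10190 to 14080 on the WT arrays. Without these 2 genes it was 6511 to 10230 and 6913 to 8524, an overlap. They were left out because they were called, a choice that favours overlap. Of the 13 tested markers, 6 had an unadjusted limma p under 0.05, against 18.5% of all tested genes. Postn, described above and also on this list, was lower (−1.28, limma adjusted p = 0.112). It was tested only through the WT arrays and is named here after its values were seen. Of 15 osteoblast and cartilage markers on the array, 9 never exceeded the bacterial controls, among them Alpl and Ibsp, and the 1 tested, the cartilage protein gene Chad, lay at −0.81 (SE 0.30, limma adjusted p = 0.244). Their summed level, 522 to 766 against 782 to 1509, was almost wholly Chad, and without it was 104 to 109 against 103 to 107, an overlap. Chad was left out after its level was seen. The part that stromal or bone cells in the sort have in the Col1a2 difference was not tested.

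Of 23 endothelial markers, 17 were tested and 1 was called higher, the fatty acid carrier Fabp4 (2.05, SE 0.36, limma adjusted p = 0.0458). Of the 17, 6 had an unadjusted limma p under 0.05, against 18.5% of all tested genes. On all 3 WT arrays, 19 of the 23 lay above the bacterial controls. Stem cells also express some of them, such as Tek, Esam and Erg, so the list does not tell the 2 cell types apart. The list's summed level was 6409 to 7193 on the Irgm1-/- arrays and 3530 to 5636 on the WT arrays. Without Vwf, which platelets also make and which was not called, it was 4725 to 6020 and 3326 to 5009, an overlap. The sum without Vwf was not planned. Vascular cadherin, Cdh5, which defines endothelium and was too dim to be tested, read 2.59, 2.55 and 4.80 against 2.45, 2.49 and 2.55, and the basement membrane gene Nid1 read 3.97, 3.89 and 6.52 against 3.75, 3.87 and 3.84. Both were highest on knockout replicate 3 and were named after their values were seen. Over the whole list, untested markers included, 13 of the 23 were highest of the 6 arrays there, against 18.4% of all tested probe sets. Another 5, among them Vwf, Erg and Emcn, were the lowest of the Irgm1-/- arrays there, against 39.3% of all tested probe sets. The 2 tested Sparc probe sets, Col4a1 and Col4a2 also had their highest values on that array, and the part of endothelial cells in this was not tested. Without that array the Sparc differences were 1.50 and 1.48, as given above. Pecam1, also an endothelial marker, never exceeded the bacterial controls.

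Of 18 megakaryocyte and platelet markers on the array, 11 were tested, 2 rose and 1 fell, where 1.08% of all tested genes were called higher and 0.954% lower. Of the 11, 8 had an unadjusted limma p under 0.05, against 18.5% of all tested genes. P-selectin, Selp, rose by 1.90 (SE 0.23, limma adjusted p = 0.0135) and the platelet receptor chain Gp1bb by 1.44 (SE 0.21, limma adjusted p = 0.029), while Mmrn1 fell by 2.03 (SE 0.23, limma adjusted p = 0.0122). Their summed level was 17120 to 18610 against 14490 to 16630. Of 13 tested macrophage markers 0 were called by limma and 4 had an unadjusted p under 0.05. The smallest p-values there belonged to Cd14 (−1.25, limma adjusted p = 0.0518) and Cd68 (0.76, limma adjusted p = 0.167), and the summed level overlapped, at 2671 to 4040 against 2585 to 4519.

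T and NK cell markers were far apart between the groups. Of 11 tested, 5 rose and 0 fell, where 1.08% of all tested genes were called higher and 0.954% lower, and 7 had an unadjusted limma p under 0.05. Those that rose include Ccl5 (4.93, limma adjusted p = 0.00207), Gzmb (3.69, limma adjusted p = 0.0162) and Ms4a4b (3.71, limma adjusted p = 0.024). The list's summed level was 10390, 9644 and 20800 on the Irgm1-/- arrays and 1088, 698 and 1165 on the WT arrays, highest on knockout replicate 3. The B cell, erythroid and neutrophil lists had 5, 5 and 4 tested genes, of which limma called 0, with 2, 1 and 0 at an unadjusted p under 0.05. Their smallest p-values belonged to Sdc1 (−1.09) and Xbp1 (−0.30), to Car2 (−0.44) and Epor (0.49), and to S100a8 (0.59) and Prtn3 (0.95). The summed levels overlapped for B cells and neutrophils, and the erythroid sum was 5565 to 7128 against 7307 to 8455. Of the 15 stem cell and progenitor genes limma called 0, with 9 at an unadjusted p under 0.05, against 18.5% of all tested genes. The smallest p-values belonged to Gata2 (−0.83, limma adjusted p = 0.0664) and the progenitor marker Flt3 (−1.23, limma adjusted p = 0.0915). The summed level of the 15 genes was lower on the Irgm1-/- arrays, 30630 to 35030 against 37560 to 41590. The part of these cells, or of the stem cells themselves, in the Col1a2 and Sparc differences was not tested.

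**Figure D4:**
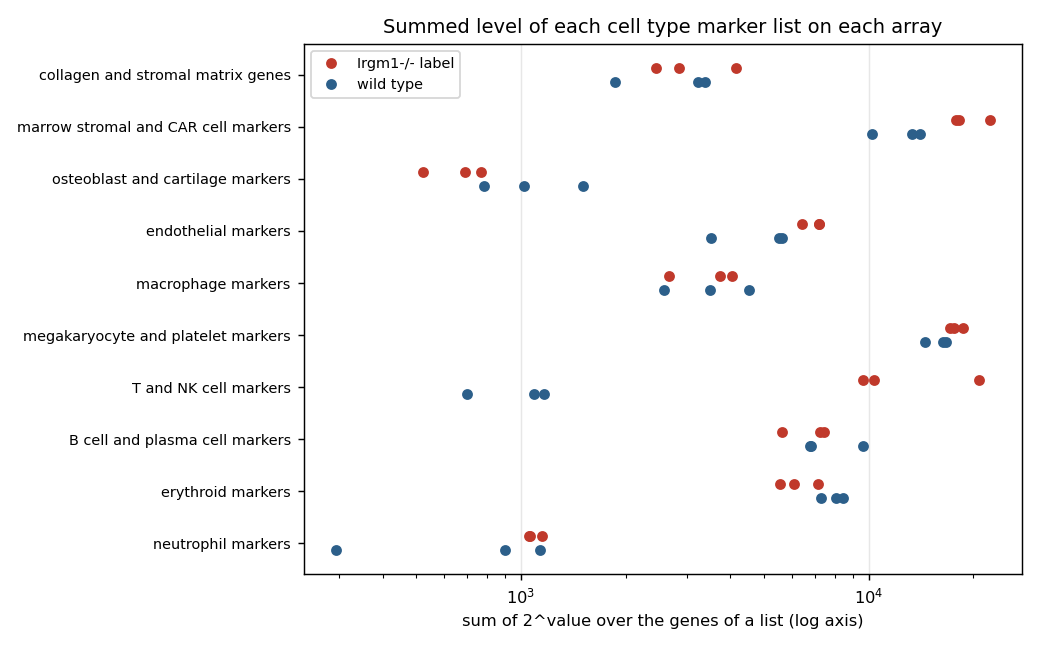
Sum of the linear values of the genes of each marker list (horizontal log axis) on each array, for the collagen and stromal matrix genes and the cell type lists (rows), with the arrays labelled Irgm1-/- in red and wild type in blue. The matrix genes overlap between groups, whereas the T and NK cell sum is 9644 or more in red and 1165 or less in blue.

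The genes whose 6 values ran most like those of Col1a2 at 1423110_at, the called member with the smallest p and one that was tested only through the WT arrays, were found by the root mean square distance between values centred on each probe set's mean. They were Gcnt2, a glycosyltransferase (distance 0.11 on the log2 scale), Pttg1, which encodes securin (0.11), Htra3, a secreted serine protease (0.15), Lurap1 (0.15) and the trophinin gene Tro (0.16), where the median over tested probe sets was 0.71. Htra3 read 5.45, 5.39 and 5.30 on the Irgm1-/- arrays and 6.42, 6.59 and 6.28 on the WT arrays. All 5 were lower on each Irgm1-/- array than on any WT array, as the choice by likeness to Col1a2 implies.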

How the data were processed

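The authors deposited 1 log2 expression value per probe set and array, using GCRMA according to the submitters' processing notes. For the version, settings and build, the sources used here give nothing. That the scale is log2 was inferred from the range of the values. Per the labels' protocols, RNA was amplified in 2 rounds of T7 transcription, which favours 3' ends. No pseudocount or further normalisation was applied. Of 45101 probe sets, 34958 had 1 symbol, 932 several and 9211 none.

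Groups were compared with limma 3.58.1 (R 4.3.3; lmFit, eBayes with intensity trend, 2-sided, Benjamini-Hochberg over all 22580 probe sets above the array median on at least 3 of 6 arrays, threshold 0.05). Differences are knockout label minus wild type. The fit was tested on simulated data. The within-array difference was tested by exact permutation. The members, the lists and the tests were chosen with earlier results of these data known. Named were all members, up to 4 called genes of each other list or else the 2 of smallest p, and the 5 nearest profiles; others are said to be named after their values were seen. The alternatives were other filters, normalisations, variance models, thresholds, array weights, a block for the replicate number, the mean of a gene's probe sets and leaving out each array; the actin covariate was added after seeing the data. Precision is limited by having 3 arrays per group.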

Additional observations from a re-analysis of the deposited data

How the results depend on the processing

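The count of member probe sets called lower, 2, was 1 with a filter at the 70th percentile, which left 7 members tested, and ranged from 1 to 2 when single arrays were left out. The count called higher, 0, was 1 (Sparc at 1448392_at) with array weights or a threshold of 0.10, and ranged from 0 to 1 with single arrays left out. Of the matrix lists' genes, 0 were called lower in the reported fit, 3 with the 70th percentile filter, 6 with array weights, 2 at a threshold of 0.10, 4 with the actin gap as a covariate, 2 with the mean of a gene's probe sets and 0 to 1 with single arrays left out; the count called higher was 1 at a threshold of 0.10 and 2 with the mean of probe sets. The third Col1a2 probe set, tested only through the WT arrays, passed with array weights (−1.35, limma adjusted p = 0.035) and with the actin covariate (−1.13, 0.0414). Fn1 at 1426642_at ranged from −0.027, a reversal, without WT replicate 3 to 0.24 without WT replicate 1. Col1a2 at 1450857_a_at ranged from −3.21 to −2.70 with single arrays left out, and the Col4a2 to Col4a1 difference within arrays from −0.25 to −0.064. The log2 ratio of the summed level, 0.16, lay at 0.07 to 0.17 under other normalisations or the mean of probe sets. With single arrays left out, added after seeing the data, it ranged from −0.090 to 0.31, reversing without knockout replicate 3 (−0.090) and without WT replicate 3 (−0.067). Over all probe sets, 150 higher and 163 lower became 49 and 54 without a filter, 62 and 64 with one at the 25th percentile, 401 and 463 with array weights, 25 and 32 at a threshold of 0.01, 314 and 315 at 0.10, 252 and 263 with the actin covariate, and 17 to 138 and 28 to 129 with single arrays left out. The replicate numbers did not pair the arrays (correlations of same-numbered deviations −0.11, −0.02 and −0.28). With the replicate block, the calls over all probe sets were 27 and 41, the members' counts were 2 lower and 0 higher, and the Col1a2 probe sets had limma adjusted p of 0.0493 and 0.0329.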
